A study of Mus musculus with 12 samples.

Results

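The melanocyte lineage genes followed here are Mitf, Sox10, Kit, Ednrb, Dct, Tyr, Tyrp1, Mlana, Slc45a2 and Gpnmb. These 10 genes were chosen by symbol from the 23492 gene symbols of the deposited tables, and each matched 1 row. They were read in mRNA sequencing of stem cells of the mouse hair follicle, sorted from dorsal skin of mice that have or lack the transcription factor Foxc1, in 12 libraries that form 7 groups. Every FPKM (fragments mapped per unit of transcript length and of library size), log2 fold and q is from the authors' deposited tables, which hold 1 pooled FPKM value per group, so no value per library and no spread between libraries can be given. A gene was called where the deposited q was below 0.05. Because FPKM is per length, levels of different genes are set side by side here. Such comparisons are approximate, since transcript forms of a gene are not split and some gene models overlap.

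Telogen is the resting phase and anagen the growth phase of the hair cycle. Telogen iKO cells came from 2 male FOXC1-Sox9CreER-iKO mice in second telogen at postnatal day 60, and anagen iKO cells came from 2 male mice of that genotype at day 30. Anagen Het cells came from 2 male FOXC1-Sox9CreER-heterozygous mice at day 30. These 3 groups share the Black Swiss/ C57BL/6 mix background and the tamoxifen given to the Sox9CreER mice, which turned on Cre and a YFP reporter. Telogen cKO cells came from 1 male at day 42 and 1 female at day 46 with FOXC1-K14Cre-cKO, and telogen WT cells from 1 male at day 42 and 1 female at day 46, all Black Swiss and in second telogen. Shh-Het females of a strain labelled Agouti gave 1 library of anagen II, an early growth substage, at about day 26 and 1 first telogen library at about day 23, and the titles of both call them WT. The Sox9 and keratin 14 promoters that drive Cre here are active in skin epithelium. Between anagen Het and telogen WT cells strain, sex, age, the labelled Foxc1 genotype and the presence of Cre and tamoxifen differ along with stage. The Foxc1 genotype is heterozygous in the first and WT in the second, and the parts of all these cannot be told apart. Telogen iKO and anagen iKO mice share strain, sex and Cre driver and differ in age, day 60 against day 30, along with stage. The sources used here do not say which surface markers gated the sort.

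Melanocytes are pigment cells that arise from the neural crest and not from the epithelium. In the hair follicle, melanocyte stem cells sit in the bulge beside the epithelial stem cells, and their progeny make pigment in the hair bulb during anagen. The transcription factor MITF switches on the genes of the melanosome, the organelle in which melanin is made, and SOX10 switches on Mitf. KIT and EDNRB receive the growth signals KIT ligand and endothelins. Mitf has several promoters, of which the most downstream gives the melanocyte form and the upstream ones give forms made in other cells, and the tables do not split these forms.

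Sequence upstream of the gene is shown for the 3 enzyme genes of melanin synthesis, which MITF is known to activate, and for the most downstream start of Mitf. The windows are the 250 bases before a RefSeq start, in build GRCm38.p6, 5′ to 3′ on the gene's strand. Capitals mark CATGTG, the core of the element that MITF binds in pigment genes, or CACATG, which is the same letters read on the opposite strand.
Tyr: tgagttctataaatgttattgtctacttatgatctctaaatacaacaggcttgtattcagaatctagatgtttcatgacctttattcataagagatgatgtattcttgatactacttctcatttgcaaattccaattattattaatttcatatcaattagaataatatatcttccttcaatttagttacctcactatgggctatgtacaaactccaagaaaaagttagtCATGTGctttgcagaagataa
Tyrp1: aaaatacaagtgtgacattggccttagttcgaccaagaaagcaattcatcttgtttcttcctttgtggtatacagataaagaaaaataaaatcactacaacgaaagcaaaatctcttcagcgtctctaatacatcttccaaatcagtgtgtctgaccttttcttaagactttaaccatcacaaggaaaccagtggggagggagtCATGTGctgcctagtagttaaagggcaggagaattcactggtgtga
Dct: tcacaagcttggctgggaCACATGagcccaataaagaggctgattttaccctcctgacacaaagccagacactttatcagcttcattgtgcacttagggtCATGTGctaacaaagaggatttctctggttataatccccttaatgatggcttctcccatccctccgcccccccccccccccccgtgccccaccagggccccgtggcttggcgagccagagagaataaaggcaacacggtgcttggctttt
Mitf, most downstream start: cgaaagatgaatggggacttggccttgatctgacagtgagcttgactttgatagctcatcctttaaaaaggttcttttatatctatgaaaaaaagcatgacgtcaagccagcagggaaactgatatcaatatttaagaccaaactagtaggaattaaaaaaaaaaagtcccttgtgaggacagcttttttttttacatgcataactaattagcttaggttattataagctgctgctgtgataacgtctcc
The windows lie at chr7:87493513-87493762 (minus strand) for Tyr, chr4:80833963-80834212 (plus strand) for Tyrp1, chr14:118052247-118052496 (minus strand) for Dct and chr6:97991533-97991782 (plus strand) for Mitf. RefSeq starts were matched for 7 of the 10 genes, with 10 windows in all, and not for Mlana, Slc45a2 and Sox10. The letters CATGTG on either strand were found in 3 of these windows, once in Tyr at 21 bases before the start, once in Tyrp1 at 46 bases and at 2 places in Dct, at 150 and 232 bases. Among all 32851 mouse windows of this length, 12.3% hold them. CACGTG, the related E-box, was found in none of the 10 windows and in 6.02% of all windows. The forkhead-type letters GTAAATA and GTAAACA, read on both strands, were in none of the 10 windows, 3 of which belong to Mitf, and were in 2.73% and 3.17% of all windows. With matches to a single motif, no motif overlapped another.

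The sorted cells carried the defining genes of hair follicle stem cells in all 7 groups. In the joint table, which puts all 7 groups on 1 scale, Cd34 ranged from 129 to 883 FPKM, Lhx2 from 149 to 257 and Sox9 from 59.5 to 132. Krt15 was listed at 0 in 3 groups and Krt5 in 5 groups, against at least 3948 FPKM of Krt5 in the other groups, so these zeros are failed estimates. Foxc1 had 3.17 FPKM in telogen iKO, 1.32 in anagen iKO and 1.66 in telogen cKO cells, against 22.5 in anagen Het cells and 27.5 in telogen WT. Both Shh-Het libraries held many markers of dermal cells. The summed level of 10 fibroblast and dermal papilla genes was 1039 FPKM in anagen II and 2113 in first telogen, against 13.7 to 105 in the other groups, and values from these 2 libraries are given apart.

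Mitf was the single gene of the 10 that was called lower in every knockout comparison. In anagen it had 2.15 FPKM in iKO cells and 7.21 in Het cells, a fold of 3.35 (log2 fold -1.74, SE 0.31, authors' deposited q = 0.00106). In second telogen it had 19.7 FPKM in cKO and 37.1 in WT cells, a fold of 1.89 (log2 fold -0.92, SE 0.34, authors' deposited q = 0.00295). Foxc1-deficient cells of both Cre drivers thus had lower Mitf than the cells they were set against. Telogen iKO cells, which have no control of their own strain and age, had 17.2 FPKM against 38.5 in telogen WT cells in the joint table, 2.24-fold lower (log2 fold -1.16, SE 0.28, authors' deposited q = 0.000444). That comparison shares its WT libraries with the cKO one. The Mitf gene model (XLOC_017112) spans chromosome 6 from 97757052 to 97971352 in build mm9 and overlaps no other model. The level does not show which cells held the transcript: fewer cells of a type and less RNA per cell cannot be told apart in bulk samples.

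Mitf also differed between stages. Telogen iKO cells had 8.46-fold more Mitf than anagen iKO cells, at 17.2 against 2.03 FPKM (log2 fold 3.08, SE 0.33, authors' deposited q = 0.000444). Among controls, anagen Het cells had 6.80 FPKM and telogen WT cells had 38.5, 5.66-fold lower in anagen (log2 fold -2.50, SE 0.30, authors' deposited q = 0.000444). The Shh-Het pair, with 1 library each and no test, had 3.66 FPKM in anagen II and 35.1 in first telogen, 9.57-fold lower in anagen II. In order of level, telogen WT came first, followed by first telogen, telogen cKO, telogen iKO, anagen Het, anagen II and anagen iKO. Telogen groups of every genotype therefore stood above anagen groups of every genotype. Of the 10 pairs among the 5 groups with 2 libraries, 9 were called, and the exception was telogen iKO against telogen cKO, at 17.2 and 20.5 FPKM (authors' deposited q = 0.389).

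**Figure D1:**
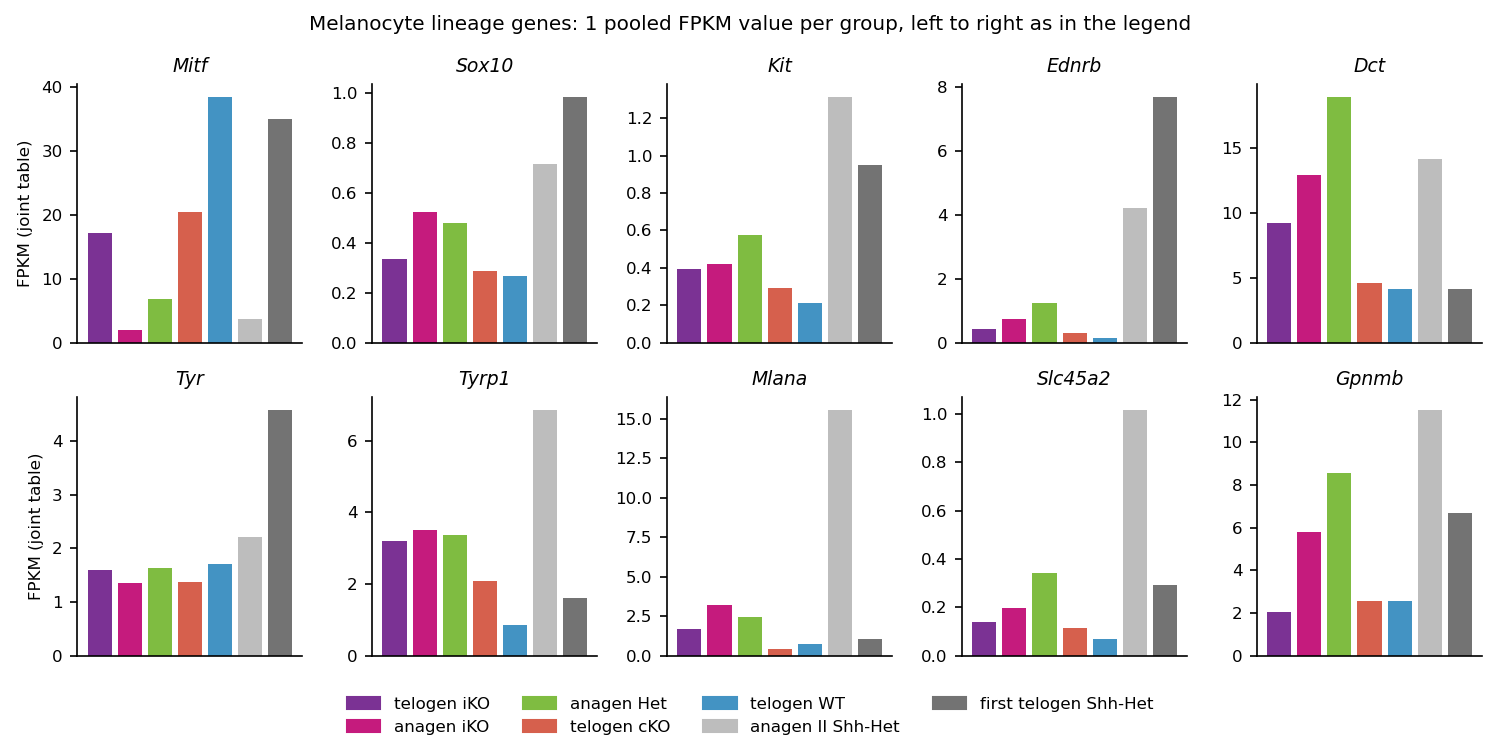
FPKM of each melanocyte lineage gene (vertical axis, joint table, each panel with its own scale from 0) in the 7 groups, 1 pooled value per group with no error bar. Mitf stands high in the 4 telogen groups, at 17.2 to 38.5 FPKM, and at 2.03 to 6.80 in the 3 anagen groups, while Dct, Tyrp1, Mlana and Gpnmb have their highest values in anagen groups.

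The enzymes of melanin synthesis did not follow Mitf. Dct, which encodes dopachrome tautomerase, had the highest level of them in every group but first telogen, where Tyr was higher, and ran the other way between stages. It had 9.24 FPKM in telogen iKO, 12.9 in anagen iKO, 19.0 in anagen Het, 4.64 in telogen cKO and 4.15 in telogen WT cells. Anagen Het cells were 4.57-fold above telogen WT cells (log2 fold 2.19, SE 0.33, authors' deposited q = 0.000444), where Mitf was 5.66-fold below. Between anagen iKO and Het cells, Dct had 13.7 and 20.1 FPKM in their own table (log2 fold -0.55, SE 0.26) and missed the threshold at q = 0.0516, while the same pair in the joint table was called at q = 0.0430. Between telogen cKO and WT cells Dct had 4.44 and 4.002 FPKM and was not called (log2 fold 0.15, SE 0.44, authors' deposited q = 0.956). Telogen iKO cells had 2.22-fold more Dct than telogen WT cells (authors' deposited q = 0.000444) and 1.99-fold more than telogen cKO cells (authors' deposited q = 0.00121), so the telogen knockout groups did not have a common Dct level.

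Tyrp1, which encodes a melanosomal enzyme related to tyrosinase, was lowest in telogen WT cells. It had 3.19 FPKM in telogen iKO, 3.49 in anagen iKO, 3.35 in anagen Het, 2.09 in telogen cKO and 0.839 in telogen WT cells. Every other group with 2 libraries thus stood above telogen WT, and those 4 pairs were the 4 called of 10, with folds of 2.49 to 4.17. In their own table telogen cKO cells had 2.00 FPKM and WT cells 0.810, which was not called (log2 fold 1.30, SE 0.65, authors' deposited q = 0.0738). The same pair was called in the joint table at q = 0.00758. Anagen iKO and Het cells had 3.70 and 3.55 FPKM (log2 fold 0.06, SE 0.35, authors' deposited q = 0.952).

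Tyr encodes tyrosinase, the first and rate-limiting enzyme of melanin synthesis. It stayed between 1.36 and 1.71 FPKM in the 5 groups with 2 libraries, and none of their 10 pairs was called, also at a deposited p below 0.05. In anagen it had 1.44 FPKM in iKO and 1.73 in Het cells (log2 fold -0.26, SE 0.39, authors' deposited q = 0.729), and in telogen 1.31 in cKO and 1.65 in WT cells (log2 fold -0.33, SE 0.50, authors' deposited q = 0.866). The Shh-Het libraries had more of it, at 2.21 FPKM in anagen II and 4.596 in first telogen.

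Mlana was low in telogen cKO and WT cells, and Slc45a2 was low in all 5 groups with 2 libraries. Mlana, which encodes a melanosome membrane protein, had 3.38 FPKM in anagen iKO and 2.59 in Het cells (log2 fold 0.38, SE 0.39, authors' deposited q = 0.775), and 0.419 in telogen cKO and 0.708 in WT cells (log2 fold -0.76, SE 0.81, authors' deposited q = 0.917). In the joint table anagen Het cells had 2.45 FPKM and telogen WT cells 0.736, a 3.33-fold difference that was not called (authors' deposited q = 0.0800). Telogen iKO cells had 1.68 FPKM and were not called against any other group with 2 libraries. The 2 called Mlana pairs were anagen iKO cells, at 3.19 FPKM, against telogen WT (authors' deposited q = 0.0385) and telogen cKO cells (authors' deposited q = 0.0363). The Mlana value in the anagen II library, 15.6 FPKM against 1.05 in first telogen, was the largest fold of the 10 genes in that pair, at 14.9. Slc45a2, a melanosomal transporter gene, was at most 0.341 FPKM in the 5 groups with 2 libraries, and 6 of its 10 pairs were not tested by the authors. It was called once, 4.87-fold higher in anagen Het cells, at 0.341 FPKM against 0.0701 in telogen WT (authors' deposited q = 0.0325), and its WT value was the lowest of the 10 genes in any group of the joint table.

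Gpnmb, a MITF target in melanocytes that macrophages also make, was called lower in anagen iKO cells. It had 6.13 FPKM in iKO and 9.09 in Het cells, a fold of 1.48 (log2 fold -0.57, SE 0.28, authors' deposited q = 0.0476), close to the threshold and not called at q below 0.01. In telogen it had 2.45 FPKM in cKO and 2.44 in WT cells (log2 fold 0.01, SE 0.42, authors' deposited q = 0.999). Gpnmb also differed by stage. Telogen iKO cells had 2.02 FPKM against 5.79 in anagen iKO cells, 2.86-fold lower (authors' deposited q = 0.000444). Anagen Het cells had 8.58 FPKM and telogen WT cells 2.54, 3.38-fold higher in anagen Het (authors' deposited q = 0.000444). The summed level of 14 macrophage markers was 12.1 FPKM in telogen iKO, 12.4 in anagen iKO, 16.5 in anagen Het, 7.74 in telogen cKO and 12.5 in telogen WT cells. Cd68 alone had 6.88 FPKM in telogen iKO and 8.52 in telogen WT cells, against 2.19 in anagen iKO and 2.51 in anagen Het cells. Alike sums thus join markers that ran in opposite directions. None of the 14 markers was called between anagen iKO and Het cells. Between controls, C1qa, C1qb and C1qc, all listed at 0 in telogen WT, were higher in anagen Het cells and Cd68 was lower. The part of macrophages in the Gpnmb values was not tested.

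Sox10, Kit and Ednrb were present at low levels in the groups with 2 libraries. Sox10, the neural crest transcription factor upstream of Mitf, stayed between 0.265 and 0.524 FPKM in the groups with 2 libraries, and none of its 9 tested pairs was called. Kit, the receptor for KIT ligand, had 0.444 FPKM in anagen iKO and 0.609 in Het cells (log2 fold -0.45, SE 0.51, authors' deposited q = 0.552). Ednrb, the endothelin receptor of pigment cells, had 0.785 FPKM in anagen iKO and 1.32 in Het cells (log2 fold -0.75, SE 0.48, authors' deposited q = 0.198). In the 2-group table Kit, Sox10 and Ednrb were not tested between telogen cKO and WT cells, where their highest value was 0.302 FPKM. The joint table tested Kit and Ednrb for that pair and neither was called (authors' deposited q = 0.504 and 0.278). Between controls Kit was 2.74-fold and Ednrb 7.68-fold higher in anagen Het cells (authors' deposited q = 0.00859 and 0.000444), both from WT levels of 0.162 to 0.210 FPKM.

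Other cells make these receptors and regulators too. Mast cells depend on KIT. The list of 10 mast cell markers summed to 1.33 FPKM in telogen iKO, 1.20 in anagen iKO, 0.805 in anagen Het, 0.937 in telogen cKO and 1.82 in telogen WT cells. Of its defining markers, Fcer1a and Ms4a2 were listed at 0 in these 5 groups and Cpa3 did not exceed 0.191 FPKM, while Mrgprb2 reached 0.928 and Hdc 0.884 FPKM, both in telogen WT cells. Endothelial cells make EDNRB, and 6 of 10 endothelial markers, Pecam1, Cdh5, Tek and Emcn among them, were higher in anagen Het cells, with a summed level of 10.4 against 1.96 FPKM in telogen WT cells. Schwann cells make SOX10, and their list of 13 genes summed to 40.6 FPKM in anagen Het cells and to 63.1 in telogen WT, with S100b and Ngfr higher and Mbp, Erbb3 and Egr2 lower in anagen Het. The part of these cells in the Ednrb, Kit and Sox10 values was not tested.

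In anagen iKO against Het cells, 2 of 10 tested genes were lower (Mitf and Gpnmb) and none was higher, where 10.3% of all 13716 tested gene models were called, 5.08% lower and 5.18% higher. In telogen cKO against WT cells, 6 of the 10 were tested, Mitf was lower and none was higher, where 6.62% of all 13551 tested models were called, 2.87% lower and 3.75% higher. In telogen iKO against telogen WT cells, Dct and Tyrp1 were higher and Mitf lower among 9 tested genes, where 12.9% of models were called, 7.01% higher and 5.88% lower. The median log2((FPKM + 1) ratio) of the 10 genes was -0.17 in the anagen, 0.04 in the telogen cKO and 0.15 in the telogen iKO comparison, against -0.02, 0.00 and -0.02 over all genes tested. In anagen 7 of the 10 genes had a smaller and 3 a larger value in knockout cells. In each telogen comparison 7 had a larger and 3 a smaller value, so in no comparison did the 10 genes share a direction.

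**Figure D2:**
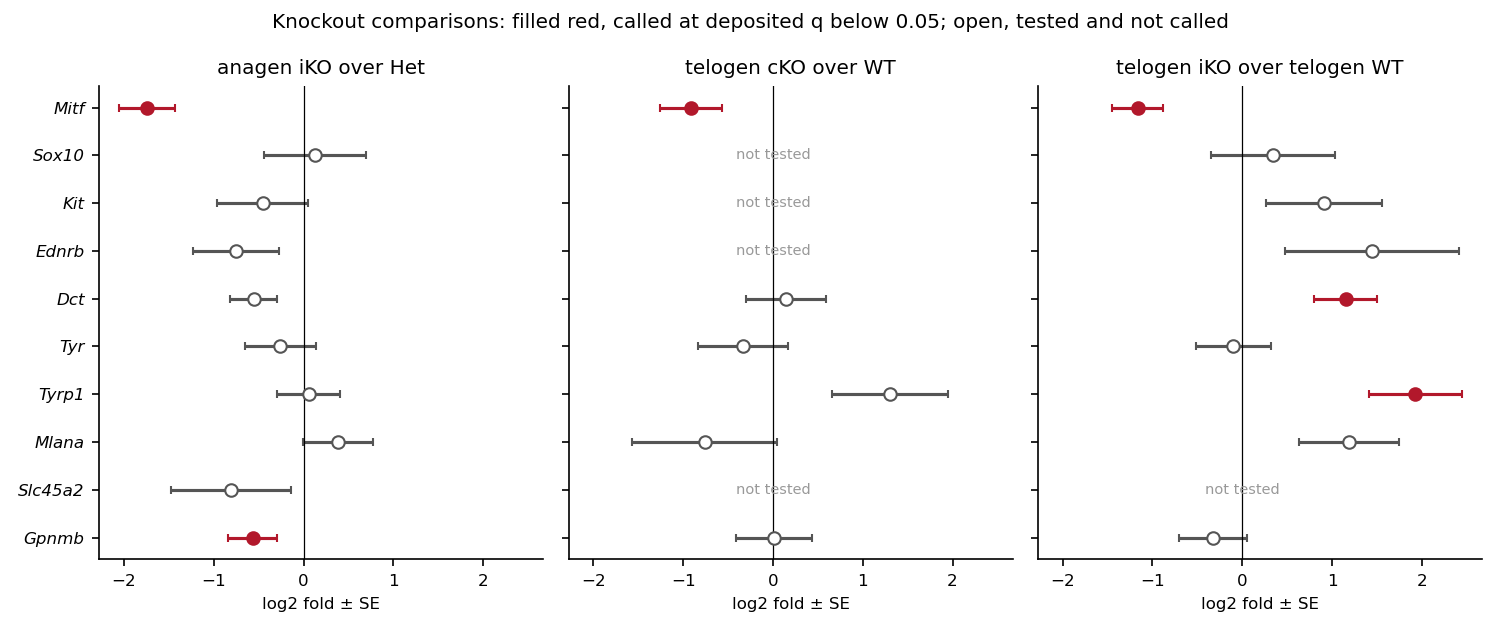
Log2 fold (horizontal axis) with its SE for each melanocyte lineage gene in the 3 comparisons of knockout with control cells, where filled red points were called and open points were tested and not called. Mitf is the single gene left of 0 and called in all 3 panels, at -1.74, -0.92 and -1.16, and the last 2 panels share their telogen WT libraries.

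Of the stage comparisons, that between controls gave the more calls. There 6 of the 10 were higher in anagen Het cells (Dct, Tyrp1, Slc45a2, Kit, Gpnmb and Ednrb) and Mitf was lower, where 25.4% of all tested models were called, 11.9% higher and 13.5% lower. The median log2((FPKM + 1) ratio) was 0.67, against 0.00 over all genes tested. Within the knockout, telogen iKO against anagen iKO cells, Mitf was higher and Gpnmb lower among 9 tested genes, where 33.2% of models were called, 17.6% higher and 15.5% lower. The other 7 tested genes were not called there, and their folds ranged from 1.07 to 1.90. In the Shh-Het pair 4 genes were at least 2-fold higher in anagen II (Dct, Tyrp1, Mlana and Slc45a2) and 2 at least 2-fold lower (Mitf and Tyr), against 10.4% and 20.1%, or 30.6% in both directions, of 13601 models with at least 1 FPKM in either library.

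Mitf stood below the summed melanosome genes in every anagen group, and above them in every telogen group but telogen iKO. The sum of Dct, Tyr, Tyrp1, Mlana and the melanosome matrix gene Pmel was 19.9 FPKM in telogen iKO, 24.7 in anagen iKO, 31.7 in anagen Het, 11.1 in telogen cKO and 9.46 in telogen WT cells. Mitf was 1.84 times that sum in telogen cKO cells, 4.07 times in telogen WT cells and 2.62 times in the first telogen library. The sum was 12.2 times Mitf in anagen iKO and 4.65 times in anagen Het cells, and 51.3 FPKM against 3.66 in anagen II. In telogen iKO cells both were near each other, with the sum at 1.16 times Mitf. Without Pmel, whose gene model overlaps that of Dgka, the sum there was 15.7 FPKM against 17.2 for Mitf, so the order turned in that group and in no other. These ratios are a description of pooled values and carry no error.

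**Figure D3:**
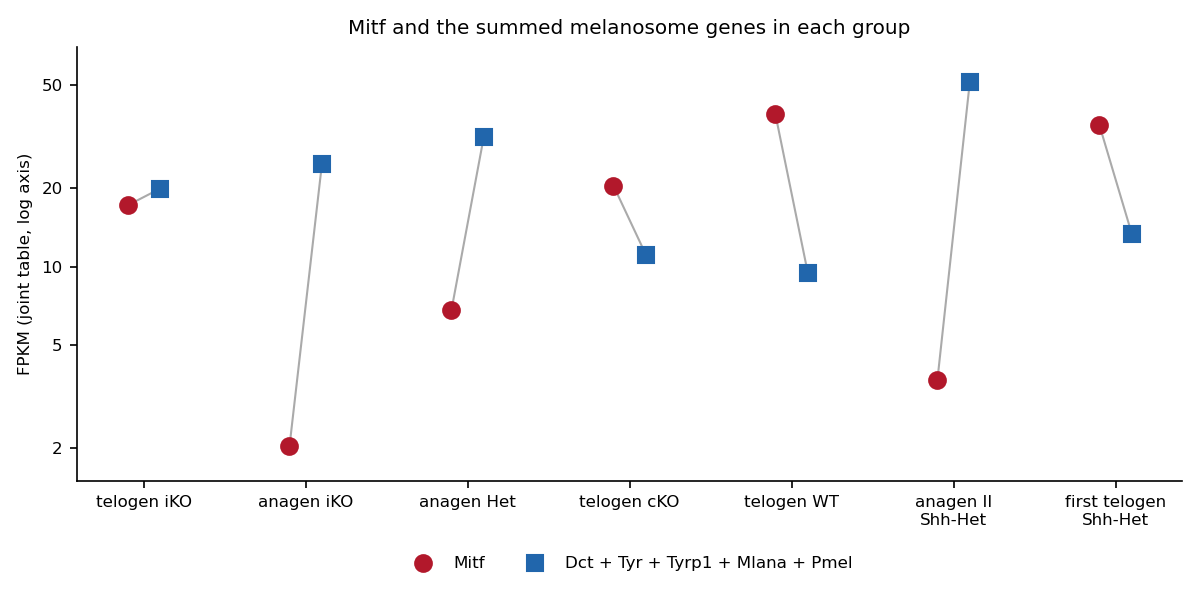
FPKM in the joint table on a log axis for Mitf (circles) and for the sum of Dct, Tyr, Tyrp1, Mlana and Pmel (squares) in each of the 7 groups, 1 pooled value each. Mitf lies above the sum in telogen cKO, telogen WT and first telogen cells and below it in the other 4 groups, of which telogen iKO turns when Pmel is left out.

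Over the 7 groups, the 3 genes whose log2(FPKM + 1) followed Mitf most closely among 10987 genes of at least 5 FPKM in some group were Arrdc2, Acad8 and Zxdc (Pearson r of 0.995, 0.988 and 0.987). Arrdc2 had 8.19 FPKM in telogen iKO, 4.99 in anagen iKO, 6.66 in anagen Het, 8.28 in telogen cKO and 9.23 in telogen WT cells, a narrower range than that of Mitf. Gpnmb was followed most closely by Fto, Gng10 and the joined beta globin model Hbb-b1,Hbb-bs (r of 0.998, 0.995 and 0.986). For Kit the closest were the fibroblast-associated genes Vcan, Cpxm1 and Thy1 (r of 0.980, 0.975 and 0.971), all with their highest level in the anagen II library. The 7 points share 1 normalization, and with so many genes compared a high r is no finding by itself.

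Of 21 other pigment cell genes with a row, Rab32 and Snai2 rose and none fell among 17 tested in anagen iKO against Het cells, where 10.3% of all models were called. In telogen cKO against WT cells Rab32 rose and Met fell among 14 tested, where 6.62% of all models were called. Rab32, a small GTPase that carries enzymes to the melanosome, had 20.3 FPKM in anagen iKO and 10.2 in Het cells (log2 fold 1.00, SE 0.25, authors' deposited q = 0.00106), and 10.1 in telogen cKO and 5.60 in WT cells (log2 fold 0.84, SE 0.36, authors' deposited q = 0.0499). Many other cell types also make Rab32, Snai2 and Met, the receptor of hepatocyte growth factor. Pmel had 3.97 FPKM in anagen iKO and 5.58 in Het cells (SE of the log2 fold 1.29), and 2.48 in telogen cKO and 1.95 in WT cells (SE 2.23). Its gene model overlaps that of Dgka, and neither comparison was called (authors' deposited q = 0.873 and 0.992). Pax3 and Mc1r, the regulator upstream of Mitf and the melanocortin receptor, did not exceed 0.446 FPKM in the 5 groups with 2 libraries.

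In telogen iKO against telogen WT cells 3 of 16 tested genes of this list, Trpm1, Rab27a and Snai2, were higher and none was lower, where 12.9% of all models were called. Trpm1, an ion channel gene that MITF is known to activate in melanocytes, had 0.358 FPKM in telogen iKO and 0.0506 in telogen WT cells, 7.08-fold higher (authors' deposited q = 0.00285). Between controls Trpm1, Rab32 and Snai2 were higher and Rab27a, Erbb3 and Lyst lower in anagen Het, with Trpm1 at 1.06 FPKM in anagen Het cells and 0.0506 in telogen WT. Within the knockout, telogen iKO against anagen iKO cells, Mlph, Rab27a, Tfap2a, Erbb3 and Lyst were higher and Rab32 lower. Of all tested models, 25.4% were called between controls and 33.2% within the knockout. The list median of log2((FPKM + 1) ratio) was -0.08, 0.00, 0.16, -0.03 and 0.04 in the anagen iKO, telogen cKO, telogen iKO against WT, telogen iKO against anagen iKO and anagen Het against telogen WT comparisons.

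The relatives of Mitf did not share its pattern in full. Tfeb, a regulator of lysosome genes in the same family, fell in anagen iKO cells, with 5.73 FPKM against 8.99 in Het cells (log2 fold -0.65, SE 0.32, authors' deposited q = 0.0348), and had 5.86 in telogen cKO and 9.36 in WT cells without a call (log2 fold -0.68, SE 0.39, authors' deposited q = 0.158). Tfe3 had 14.3 and 14.2 FPKM in anagen iKO and Het cells, and 13.6 and 11.5 in telogen cKO and WT cells (authors' deposited q = 0.991 and 0.816). Tfec was listed at 0 in 4 groups and did not exceed 0.359 FPKM in any. Of the 4 family genes, Mitf and Tfeb were thus lower in anagen iKO cells, Mitf alone was called in both telogen knockout comparisons, and Mitf alone between stages.

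The epithelium sends pigment cells several signals, and the endothelins Edn1 and Edn2 were higher in Foxc1-deficient telogen cells in part of the comparisons. Edn2, an endothelin that bulge epithelial cells are known to release, had 4.96 FPKM in telogen cKO and 0.779 in WT cells, 6.36-fold higher (log2 fold 2.67, SE 0.60, authors' deposited q = 0.00159). In anagen it had 2.76 FPKM in iKO and 3.81 in Het cells and was not called (log2 fold -0.47, SE 0.41, authors' deposited q = 0.480). Telogen iKO cells had 3.72 FPKM of Edn2 and 6.73 of Edn1, against 0.809 and 0.700 in telogen WT cells, 4.604-fold and 9.62-fold higher (authors' deposited q = 0.000444 for both). Telogen WT cells were thus the lowest group for both endothelins. In the anagen II library Edn2 reached 74.4 FPKM, against 7.98 in first telogen. Edn3 did not exceed 0.395 FPKM in the joint table in the groups with 2 libraries and was listed at 0 in telogen WT cells.

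Ednra, the endothelin receptor of the other type, fell with Foxc1 in both matched comparisons. It had 2.40 FPKM in anagen iKO and 12.99 in Het cells, 5.41-fold lower (log2 fold -2.44, SE 0.30, authors' deposited q = 0.00106), and 4.39 in telogen cKO and 20.5 in WT cells, 4.66-fold lower (log2 fold -2.22, SE 0.34, authors' deposited q = 0.00159). Telogen iKO cells had 20.4 FPKM and telogen WT cells 21.2, which was not called (log2 fold -0.06, SE 0.27, authors' deposited q = 0.875). Ednra thus matched Mitf in falling in anagen iKO and telogen cKO cells, while in telogen iKO cells Mitf was lower and Ednra was not called. Kitl, the ligand of KIT, had 13.2 and 12.4 FPKM in anagen iKO and Het cells and 7.88 and 9.69 in telogen cKO and WT cells, with no call (log2 folds of 0.09, SE 0.24, and -0.30, SE 0.33).

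Of the 14 signal genes, 10 were tested in anagen iKO against Het cells, and Cxcl12 was the single one that rose. Among 9 tested in telogen cKO against WT cells, Edn2 alone was called. Edn1 and Edn2 were called among 9 tested in telogen iKO against WT cells. Of all tested models, 10.3%, 6.62% and 12.9% were called in these comparisons, in that order. The chemokine gene Cxcl12 had 63.8 FPKM in anagen iKO and 34.6 in Het cells (log2 fold 0.88, SE 0.27, authors' deposited q = 0.00106). Ngfr, a receptor found on nerve, Schwann and some melanocyte lineage cells, had 4.64 FPKM in anagen iKO and 8.63 in Het cells (log2 fold -0.89, SE 0.29, authors' deposited q = 0.00106). Between controls Edn1, Edn2 and Edn3 were among the signal genes higher in anagen Het cells, and Tgfb2 and Wnt3a were lower. Within the knockout, Edn1, Tgfb2 and Wnt3a were higher in telogen iKO than in anagen iKO cells, and Lif was among those lower. Of the signal genes, 10 were tested between controls and 9 within the knockout, where 25.4% and 33.2% of all tested models were called. Tgfb2 encodes a TGF-beta ligand, a kind of signal known to hold melanocyte stem cells quiescent. It had 4.22 FPKM in telogen iKO and 0.684 in anagen iKO cells, and 1.17 in anagen Het cells against 4.48 in telogen WT. It was not called by Foxc1 status within either stage, at 0.725 FPKM in anagen iKO against 1.24 in Het cells and 6.00 in telogen cKO against 4.31 in WT cells. The agouti signal gene, listed under its older symbol, had 2.08 FPKM in the anagen II library of the strain labelled Agouti and did not exceed 0.289 in any other group.

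**Figure D4:**
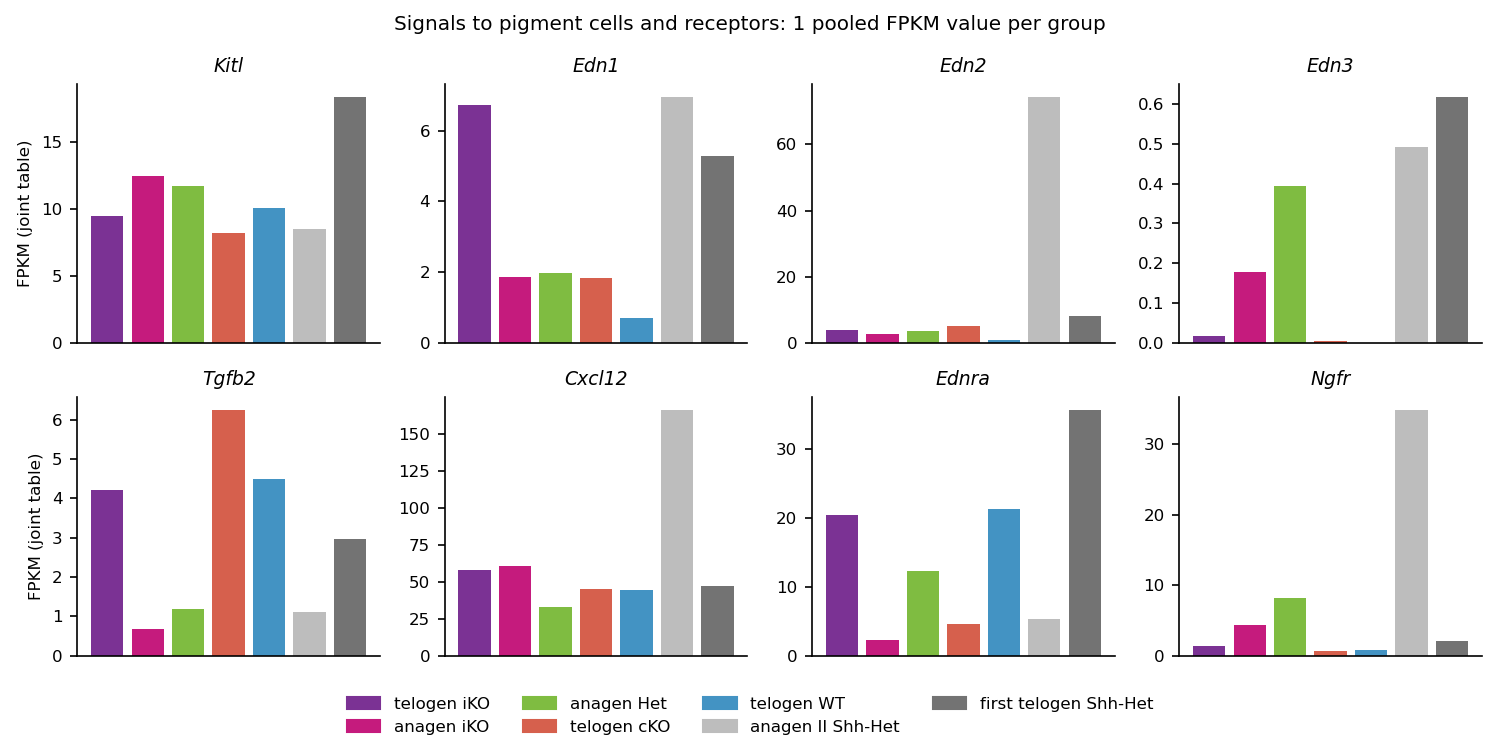
FPKM (vertical axis, joint table, each panel with its own scale from 0) of 5 signals to pigment cells, the chemokine gene Cxcl12 and the receptor genes Ednra and Ngfr in the 7 groups, 1 pooled value per group. Ednra lies at 2.27 FPKM in anagen iKO and 4.57 in telogen cKO cells, against 12.3 in anagen Het cells and 21.2 in telogen WT, and Edn2 reaches 74.4 FPKM in the anagen II library.

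A further list held 11 genes that act on these signals or mark their sources. Ednra was its single call among 10 tested in the anagen iKO and among 9 tested in the telogen cKO comparison. No gene of this list was called among 9 tested in telogen iKO against telogen WT cells. Of all tested models, 10.3%, 6.62% and 12.9% were called in these comparisons, in that order. Corin, a protease gene of the dermal papilla that limits agouti action, was higher and Ednra lower in anagen Het cells when set against telogen WT. Nfib, a bulge transcription factor known to restrain Edn2, had 118 FPKM in anagen iKO, 144 in anagen Het, 92.3 in telogen cKO and 125 in telogen WT cells in the joint table, and was not called in either knockout comparison. Ednra was also the single call of the list within the knockout, higher in telogen iKO than in anagen iKO cells. Of this list, 10 genes were tested between controls and 9 within the knockout, where 25.4% and 33.2% of all tested models were called.

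Markers of other cells moved with some of these comparisons. Of all tested models, 10.3% were called in anagen iKO against Het, 6.62% in telogen cKO against WT and 12.9% in telogen iKO against WT cells. In anagen Het against telogen WT cells 25.4% were called, 11.9% higher and 13.5% lower. In telogen iKO against anagen iKO cells 33.2% were called, 17.6% higher and 15.5% lower. In anagen iKO against Het cells, Col1a1, Col1a2 and Col3a1 fell among 9 tested fibroblast and dermal papilla genes. Tek and Vwf fell among 8 tested endothelial genes, and none of 11 tested macrophage or 2 tested mast cell genes was called. The fibroblast sum was 55.8 FPKM in anagen iKO and 105 in anagen Het cells, and the endothelial sum 6.84 and 10.4. In telogen cKO against WT cells, Col1a1 alone rose among 3 tested fibroblast and dermal papilla genes, and Flt1 alone among 5 tested endothelial genes. The medians of log2((FPKM + 1) ratio) of these lists were -0.01 and 0.02, so neither list moved as a whole. Cd68 fell there among 4 tested macrophage genes and Egr2 among 9 tested Schwann and glial genes. In telogen iKO against WT cells Ptprc and Flt1 rose while Tek, Col1a1 and Col1a2 fell. Between anagen Het and telogen WT cells, 7 of 9 tested fibroblast and dermal papilla genes were higher and none lower, with sums of 105 and 23.5 FPKM. Within the knockout, 5 of 8 tested endothelial and 4 of 7 tested fibroblast and dermal papilla genes were lower in telogen iKO cells. No gene of either list was higher. There Lyz2, C1qa and C1qc were also lower, and Cd68, Ptprc and the mast cell receptor gene Mrgprb2 were higher. Of 13 Schwann and glial genes, 10 were tested in anagen iKO against Het cells, where Egr2 rose and Ngfr fell. Of 10 tested in telogen iKO against anagen iKO cells, 3 were higher and 3 lower. Of 11 genes listed for hair follicle stem cells, Cd34 and Nfatc1 were lower in anagen iKO than in Het cells. None was called between telogen cKO and WT cells. Tcf3, a gene distinct from Tcf7l1 of the same list, was lower in telogen iKO than in WT cells. Tcf7l1 had 10.9 FPKM in telogen iKO and 13.3 in WT cells and was not called, so the Tcf3 calls do not stand for Tcf7l1. Cd34, Nfatc1 and Lgr5 were lower in anagen Het than in WT cells, and Cd34 and Nfatc1 were higher and Tcf3 lower in telogen iKO than in anagen iKO cells. Mrgprb2 was lower in anagen Het cells than in WT. Dermal markers and 6 of the 10 melanocyte lineage genes were thus higher in the same anagen Het cells, and Mitf was not. Their part in the Gpnmb, Dct, Kit and Ednrb values was not tested.

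**Figure D5:**
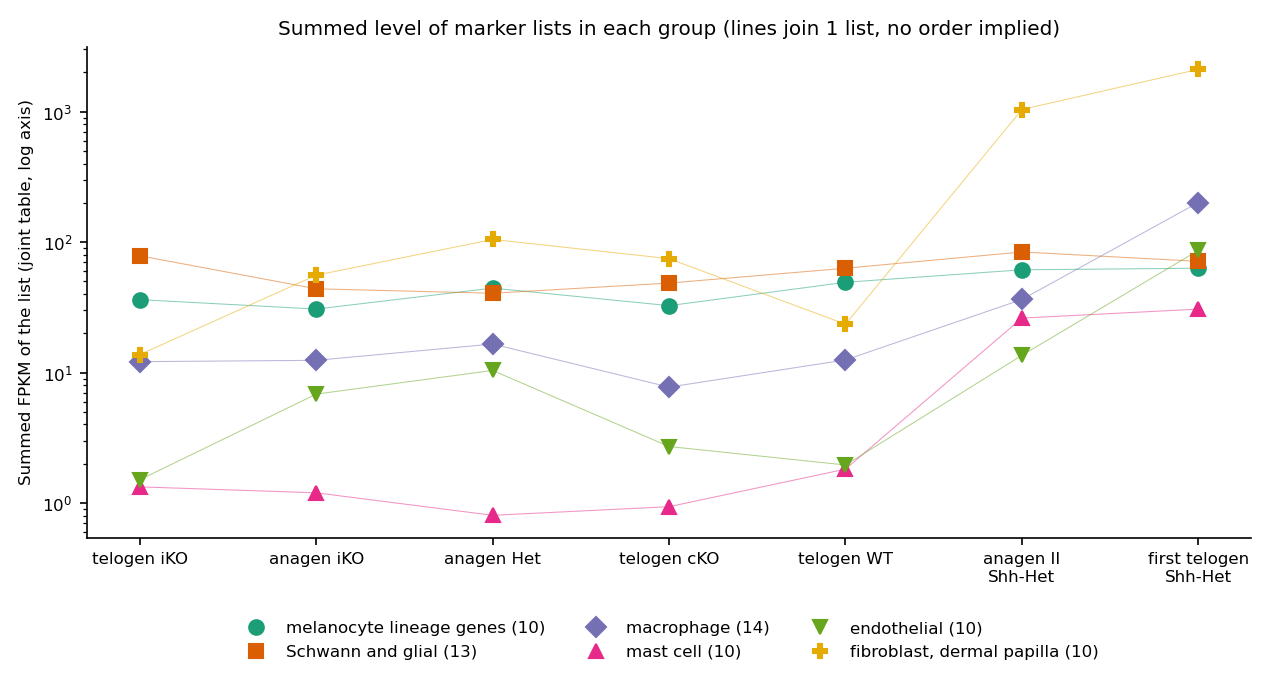
Summed FPKM (log axis, joint table) of the 10 melanocyte lineage genes and of marker lists of 5 other kinds of cell in each of the 7 groups, with the number of genes per list in the legend. The fibroblast and dermal papilla sum is 1039 and 2113 FPKM in the anagen II and first telogen libraries, against 13.7 to 105 elsewhere.

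Whether the knockout effect differed between stages was tested for each gene as the difference of both log2 folds divided by its SE. None of the 6 melanocyte lineage genes that could be tested (Mitf, Dct, Tyr, Tyrp1, Mlana and Gpnmb) differed after adjustment over 12937 genes, where 0.657% of genes did. For Mitf the log2 fold was -0.92 in telogen and -1.74 in anagen, a difference of 0.83 (SE 0.46). For Tyrp1 the difference was 1.24 (SE 0.73) and for Dct 0.70 (SE 0.52). These SEs leave room for differences of that size in either gene. Cre driver, strain, age, sex and control genotype differ between both comparisons.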

How the data were processed

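RNA of 12 libraries in 7 groups was measured by mRNA sequencing. Per the labels' protocols, library preparation used an Illumina TruSeq kit for mRNA. TopHat, Cufflinks, Cuffdiff and build mm9 appear, without versions, in the submitters' processing notes. The sources used here do not state strand handling, read depth or tool settings. The authors deposited 3 tables of 23735 gene models. Each gives FPKM as 1 pooled value per group, per the file headers. The log2 fold, the test statistic (a score) and the p-value and q-value per gene are the authors' deposited values. No table gives counts, so depth is unknown and no counting interval can be given. The smallest deposited p is 5e-05. The deposited q equals a Benjamini-Hochberg adjustment over all tested rows of a table, which in the joint table means 21 comparisons together.

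Anagen iKO against Het and telogen cKO against WT used their own 2-group tables, and other values the joint table, whose FPKM differs in scale (median log2 ratio of 2-group over joint values 0.08 for anagen and -0.06 for telogen), so levels are compared within 1 table only. Calls use a threshold of 0.05 on the deposited q. "Rose", "fell", "higher" and "lower" refer to calls, or to values where only 1 library exists. For telogen iKO over anagen iKO the deposited fold runs the other way and was recomputed from both FPKM values. The SE, which is approximate, was taken as log2 fold over deposited test statistic. The authors' test rests on 2 libraries per group, and the labels describe each as a replicate from 1 mouse. The difference of knockout effects is a two-sided z test with Benjamini-Hochberg adjustment, and leaves out genes where the p and the test statistic disagree. A run on simulated data drew normal folds from the same SEs that the test uses. It therefore could not check whether those SEs or the normal approximation hold in the real data. A symbol on several rows keeps the row of highest mean FPKM. List medians use a pseudocount of 1.

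Members and gene lists were chosen with earlier results of these data known. Named are the 10 members, 11 genes whatever their values (Kitl, Edn1, Edn2, Edn3, agouti, Mc1r, Pmel, Pax3, Tfe3, Tfeb and Foxc1), and up to 4 called genes per list and comparison by lowest p. For Mitf, Gpnmb and Kit the 3 genes of most similar pattern are named. Nfib, Lyst, Mlph, Lif, Tfec, Lhx2, Sox9, Krt5, Krt15, Fcer1a, Ms4a2, Cpa3 and Hdc are given outside that rule, chosen after their values were seen. Upstream sequences are from RefSeq (GRCm38.p6), of which the first 250 bases were used. Python 3.11.15, pandas 2.3.3, numpy 2.4.6 and scipy 1.17.1 were used. The result of 1 listed gene is not reported here. The melanosome sum without Pmel was chosen after seeing the data.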

Additional observations from a re-analysis of the deposited data

Results flagged for a closer look

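Among the genes named in the text, the effect of Foxc1 loss differed between telogen (cKO over WT) and anagen (iKO over Het) for 3 genes by the test of the difference, at an adjusted threshold of 0.05 over 12937 genes, and none of them is a melanocyte lineage gene. Edn2 had a log2 fold of 2.67 in telogen and -0.47 in anagen, a difference of 3.14 (SE 0.73). Col1a1 had 2.64 in telogen and -0.94 in anagen, a difference of 3.57 (SE 0.40). Egr2 had -0.75 in telogen and 0.78 in anagen, a difference of -1.53 (SE 0.40). The test is a normal approximation on the authors' deposited statistics from 2 libraries per group. Cre driver, strain, sex, age and control genotype cannot be told apart from stage in these differences.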

How the results depend on the processing

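The number of melanocyte lineage genes called was 2 in anagen iKO against Het cells, 1 at q below 0.01 (Mitf) and 4 at an unadjusted p below 0.05. In telogen cKO against WT cells it was 1, and 2 both in the joint table and at an unadjusted p below 0.05, the second gene being Tyrp1. Between anagen Het and telogen WT cells 7 genes were called and 3 when at least 1 FPKM was required in both groups. Dct between anagen iKO and Het cells (log2 fold -0.55) and Tyrp1 between telogen cKO and WT cells (1.32) passed the threshold in the joint table only. No tested log2 fold of the 10 genes in the 2-group comparisons changed sign in the joint table, when centred on the median gene, with a pseudocount of 1 or with all rows of a symbol summed. The median of the other pigment cell genes in telogen iKO against anagen iKO cells was -0.03, and 0.14 when genes below 1 FPKM in both groups were left out. No other list median of the 10 genes or the other pigment cell genes reversed at pseudocounts of 0.1 or 5 or under that filter. None of the 10 genes differed between knockout effects with a larger SE, in the joint table or with all genes kept. Looking up the agouti gene under its older symbol was chosen after seeing the data. No paired analysis was possible because the tables hold 1 pooled value per group, and leaving out a replicate could not be run for the same reason, so whether 1 library sets a value is unknown. Most members lie below 5 FPKM, where depth, which is unknown, limits what could be called.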
